A study of Homo sapiens with 6 samples.

Results

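Insulin-like growth factors (IGFs) travel bound to IGF-binding proteins (IGFBPs), which were measured here as mRNA together with the proteases PAPPA and PAPPA2 and the stanniocalcins STC1 and STC2. The 10 genes described are IGFBP2, IGFBP3, IGFBP4, IGFBP5, IGFBP6, IGFBP7, PAPPA, PAPPA2, STC1 and STC2, out of 27257 genes in the library tables. They were taken by name as the members of this axis, and the axis was chosen by measured values of the same comparison, the expression differences between the 2 groups described here. Their fold changes and adjusted p values are therefore descriptions of these libraries and not independent tests.

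The cells were U87MG, an established human glioblastoma line, grown in DMEM with 10% FBS (fetal bovine serum), penicillin-streptomycin, L-glutamine and gentamicin. Infection lasted 24 h in both groups. The 3 libraries of U87MG-control came from cells given a control lentivirus, and the 3 of U87MG-LMO2 from cells given an LMO2 lentivirus, LMO2 being a transcriptional cofactor of the LIM-domain-only family. The expression vector described for the study drives LMO2 from the CMV promoter, so the added LMO2 is not under its own control, and reads from it and from the cells' own gene were counted together. No label says that the 3 libraries of a group came from separate cultures, so p values measure only the spread between these libraries, which may be technical.

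An IGF held by an IGFBP cannot reach the IGF1 receptor, and it is set free when a protease cuts the carrier. PAPP-A, the product of PAPPA, is a secreted metalloprotease best known for cutting IGFBP4, and its relative PAPP-A2 cuts IGFBP3 and IGFBP5. The stanniocalcins are secreted glycoproteins that bind these proteases and block them. The libraries measured mRNA only, so neither the proteins, nor those that serum brings, nor protease activity was seen.

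Total expected counts, the estimated reads per gene summed over a library, lay between 11428432 and 13537284 in the controls and between 14630627 and 17892955 with LMO2. LMO2 was at 7, 11 and 5 counts in the control libraries and at 5459, 4503 and 14570 counts in the U87MG-LMO2 libraries, in the order of replicates 1 to 3, which is used for every list of values. On the scale of CPM, counts divided by the size of the library so that libraries of unequal depth can be compared, replicate 3 of U87MG-LMO2 held 877.9 of LMO2 against 333.0 and 307.0 in the other two. The mesenchymal genes VIM and CD44 were high in every library, at no less than 10908.2 and 1120.9 CPM. The sum of all 4 mesenchymal markers was 14952.2 to 15803.7 CPM in the controls and 16647.5 to 23789.3 CPM with LMO2, without overlap. FN1, fibronectin, had a log2 fold change of 0.99 within it (edgeR adjusted p = 0.0755), and the part of this difference in the values below was not tested. Of the glial markers, S100B, AQP4 and ALDH1L1 were at most 0.183 CPM and SOX2 at most 0.241 CPM. OLIG2 was at 0.409 to 1.06 CPM. GFAP had 5, 11 and 6.99 counts in the controls and 13 and 6 in replicates 1 and 2 of U87MG-LMO2. Its value in replicate 3 was damaged, and it was left out of the tests. The glutamate transporter SLC1A3 was at 19.9 to 42.1 CPM. The leukocyte gene PTPRC, the epithelial genes EPCAM and KRT19 and the neuronal gene RBFOX3 each stayed at or below 0.603 CPM. Other markers of those types were present, with CD68 of the leukocyte list at 292.4 to 570.1 CPM. The epithelial gene CDH1 was at 2.12 to 3.00 CPM and the neuronal gene SNAP25 at 24.8 to 34.0 CPM. The endothelial gene PECAM1 was at 4.02 to 5.48 CPM.

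The promoter sequences of 3 genes are shown because they belong to both carriers that rose and to the protease that acts on IGFBP4. They are the 250 bases before the start of each gene in RefSeq on GRCh38.p14, written 5′ to 3′ on the gene's own strand. IGFBP4 is at chr17:40443200-40443449 on the plus strand, IGFBP3 at chr7:45921273-45921522 on the minus strand and PAPPA at chr9:116153541-116153790 on the plus strand. GENCODE 29 places IGFBP3 at 7:45912245-45921874, so by that annotation its window lies inside the gene. The distances given for IGFBP3 hold for the RefSeq start only. Capitals mark matches to a TATA box (searched as TATAAA), an E-box (searched as CANNTG) or the letters of a GATA site, each on both strands. A STAT-type site (TTCNNNGAA) was searched in the same way and none of the 3 held it.
IGFBP4: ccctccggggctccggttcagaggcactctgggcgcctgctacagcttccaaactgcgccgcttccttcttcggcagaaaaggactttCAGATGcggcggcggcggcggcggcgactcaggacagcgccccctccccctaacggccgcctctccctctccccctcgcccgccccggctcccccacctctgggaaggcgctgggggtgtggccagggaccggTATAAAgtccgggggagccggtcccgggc
IGFBP3: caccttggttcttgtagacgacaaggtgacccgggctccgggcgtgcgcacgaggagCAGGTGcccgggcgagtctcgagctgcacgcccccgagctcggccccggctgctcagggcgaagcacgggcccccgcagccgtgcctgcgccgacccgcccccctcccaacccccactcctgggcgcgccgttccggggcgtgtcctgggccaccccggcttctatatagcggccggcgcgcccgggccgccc
PAPPA: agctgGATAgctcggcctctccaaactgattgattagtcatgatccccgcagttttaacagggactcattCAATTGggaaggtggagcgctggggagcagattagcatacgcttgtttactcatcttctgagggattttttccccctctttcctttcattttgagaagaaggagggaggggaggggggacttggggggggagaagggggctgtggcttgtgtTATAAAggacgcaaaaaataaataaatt
IGFBP4 and PAPPA both held TATAAA, 29 and 28 bases before the start, which 10.7% of 35116 RefSeq promoters of that length held. An E-box stood 162 bases before the start of IGFBP4, 193 before that of IGFBP3 and 180 before that of PAPPA, and 61.8% of all promoters had one. GATA was found in PAPPA only among these 3, 245 bases before the start, against 45.6% of all promoters. The STC2 window held E-boxes 78 and 57 bases and GATA 34 bases before the start. The STAT-type letters were in 6.6% of all promoters and, of the 8 members with an entry, in PAPPA2 alone. These matches are letters in a window and show nothing of what binds there.

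IGFBP4, STC2 and IGFBP3 rose with LMO2 over the controls, 14.0-fold, 4.29-fold and 3.05-fold, while no member was called lower. Both cleaving enzymes stayed without a call, PAPPA at 1.27 times and PAPPA2 at 0.875 times the control level. Calls come from edgeR's quasi-likelihood test on rounded expected counts with a Benjamini-Hochberg adjusted p under 0.05 over the 16092 genes that passed its filter on low counts. Of the 10 members 8 passed that filter, 3 were called higher and 0 lower, against 4.72% of all tested genes called higher and 2.75% called lower. All 3 were over 2-fold higher, and 1.60% of all tested genes were both called and over 2-fold higher. At an unadjusted p under 0.05, 4 members were higher and 0 lower. Of all 16092 tested genes, 2221 were higher and 1922 lower at that unadjusted p, 25.7% together. DESeq2 and limma also called 0 members lower. The median log2 fold change of the 8 was 0.36, between -0.33 and 3.81, against -0.01 over all tested genes. In CPM, 4 of the 8 had every U87MG-LMO2 library above every control library, 0 had every one below, and 4 overlapped. Over all tested genes 17.5% were wholly above and 16.6% wholly below. These are bulk libraries, in which more cells with a transcript and more transcript per cell cannot be told apart.

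**Figure D1:**
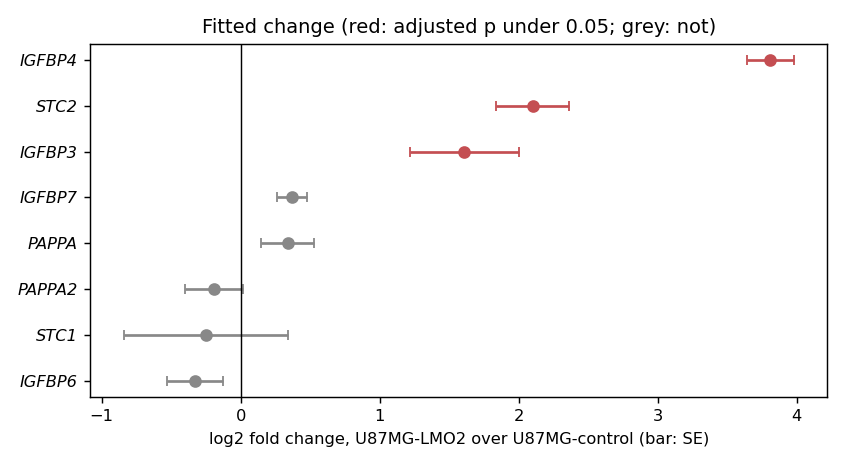
Fitted log2 fold change of the 8 tested genes, U87MG-LMO2 over U87MG-control (x axis); points are edgeR estimates from 3 libraries a group, bars are 1 standard error and red marks an adjusted p under 0.05. IGFBP4 stands at 3.81, STC2 at 2.10 and IGFBP3 at 1.61, and the bars of PAPPA2 and STC1 reach across 0.

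IGFBP4 encodes the carrier that PAPP-A cuts, and it lies at 17:40443461-40457731 on the plus strand (GENCODE 29, GRCh38). Its level in FPKM, fragments scaled to transcript length and to mapped reads, was 1.59, 1.34 and 1.59 in U87MG-control and 18.99, 24.65 and 18.12 in U87MG-LMO2. The lowest U87MG-LMO2 library was far above the highest control library, and the 3 control libraries lay close together. These levels rested on 41, 41 and 47 counts in the controls and on 690, 812 and 732 counts with LMO2. The mean went from 3.37 ± 0.325 to 47.2 ± 7.15 CPM (SD, n = 3 each), a log2 fold change of 3.81 with a standard error (SE) of 0.17 (edgeR adjusted p = 6.55e-05). IGFBP4 ranked 1 of all 16092 tested genes by p value and 8 by size of the fold change, and LMO2 itself ranked 3 and 1. The call held in 14 of 14 alternative fits, and leaving out any 1 library kept the log2 fold change between 3.68 and 3.89.

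STC2, the stanniocalcin that binds PAPP-A covalently, lies at 5:173314713-173329503 on the minus strand. It was at 15.35, 18.51 and 18.21 FPKM in U87MG-control and at 72.49, 104.34 and 42.64 FPKM in U87MG-LMO2. All libraries with LMO2 were above all controls, but they differed among themselves, and replicate 3, with the most LMO2, had the least STC2 of its group. The mean was 93.3 ± 9.31 CPM in the controls and 400.7 ± 157.7 CPM with LMO2 (SD, n = 3 each), a log2 fold change of 2.10 (SE 0.26, edgeR adjusted p = 0.00500). It ranked 75 by p value and 52 by fold. This call also held in 14 of 14 alternatives, with a log2 fold change of 1.77 to 2.35 when 1 library was left out and a highest adjusted p of 0.0477.

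STC1, the other stanniocalcin, did not follow STC2. It was at 84.48, 19.79 and 19.93 FPKM in U87MG-control and at 18.18, 29.22 and 52.37 FPKM in U87MG-LMO2, so the groups overlapped and control replicate 1 was the highest library of all. The fitted log2 fold change was -0.25 (SE 0.59, edgeR adjusted p = 0.825), and without control replicate 1 it was 0.81, still without a call. The 2 libraries highest in STC1 were also the highest in CHI3L1, a secreted chitinase-like glycoprotein, which was at 242.0, 95.4 and 92.4 CPM in the controls and at 101.5, 86.5 and 435.6 CPM with LMO2. They were the highest in CD68, a lysosomal gene abundant in macrophages, too, at 524.5 and 570.1 CPM against 292.4 to 393.8 CPM in the rest. Of the 4 leukocyte markers 3 could be summed, at 392.3 to 525.2 CPM in U87MG-control and 293.4 to 571.0 CPM in U87MG-LMO2, nearly all of it CD68, with PTPRC and CD14 near 0. What part these differences have in the STC1 values was not tested.

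PAPPA, at 9:116153804-116402322 on the plus strand, had 27.97, 27.22 and 27.68 FPKM in U87MG-control and 26.21, 31.45 and 43.22 FPKM in U87MG-LMO2. The controls were almost alike, the libraries with LMO2 spread on both sides of them, and replicate 3 was the highest. The log2 fold change was 0.34 (SE 0.19, edgeR adjusted p = 0.301), and 0.07 without U87MG-LMO2 replicate 3. The antisense gene PAPPA-AS1 has all of its 2450 exon bases inside PAPPA exons on the other strand. Whether the counting used strand is not given in the sources used here, so reads of the pair cannot be told apart there. PAPPA-AS1 was at 17.87, 16.98 and 18.18 FPKM in the controls and 17.13, 20.66 and 16.26 FPKM with LMO2, below PAPPA in every library, and its groups overlapped (log2 fold change 0.07, edgeR adjusted p = 0.742).

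PAPPA2, at 1:176463171-176845605 on the plus strand, was the weaker of the 2 protease genes. Its level was 2.62, 1.82 and 1.96 FPKM in U87MG-control and 1.48, 2.12 and 2.07 FPKM in U87MG-LMO2. The groups overlapped, and the log2 fold change of -0.19 (SE 0.21, edgeR adjusted p = 0.596) came to 0.01 without control replicate 1. PAPPA thus stood 10.7 to 15.0 times above PAPPA2 per length in the controls and 14.8 to 20.9 times above it with LMO2.

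**Figure D2:**
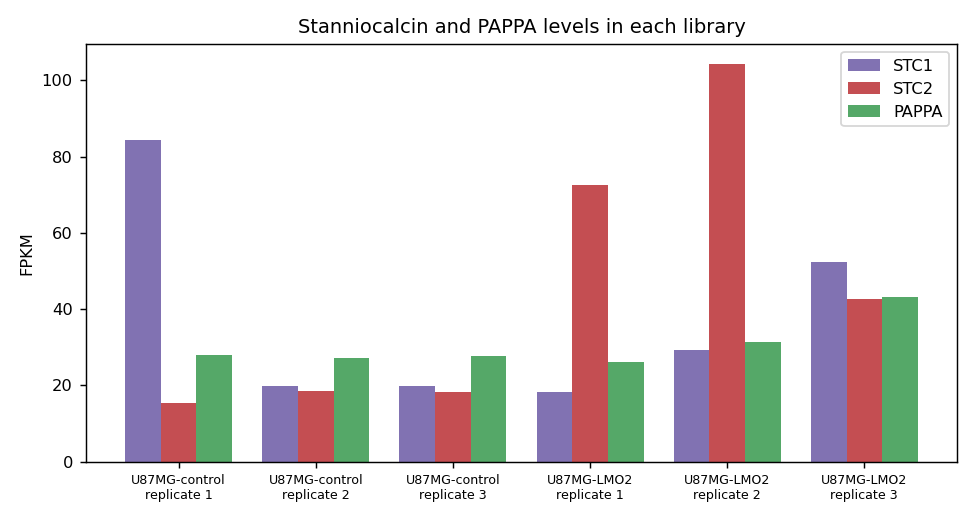
FPKM (y axis, from 0) of STC1, STC2 and PAPPA in each of the 6 libraries (x axis); each bar is 1 library. STC2 was below PAPPA in all controls and above it in replicates 1 and 2 of U87MG-LMO2, while in replicate 3 the pair stood at 42.64 and 43.22.

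Set against the protease per length, STC2 was at 0.549, 0.680 and 0.658 times PAPPA in the controls and at 2.77, 3.32 and 0.987 times PAPPA with LMO2. The groups did not overlap, although replicate 3 came much nearer to the controls than the other two. IGFBP4, the substrate, was at 0.0568, 0.0492 and 0.0574 times PAPPA in the controls and at 0.725, 0.784 and 0.419 times PAPPA with LMO2, again with no overlap. These ratios use the genes that the fits called and add a description, not a second test. The summed stanniocalcins did overlap, at 99.8, 38.3 and 38.1 FPKM in the controls and 90.7, 133.6 and 95.0 FPKM with LMO2, control replicate 1 with its high STC1 being the one that overlapped. STC2 made up 15.4%, 48.3% and 47.7% of that sum in the controls and 79.9%, 78.1% and 44.9% with LMO2. Over the sum of PAPPA and PAPPA2, the stanniocalcin sum was 3.26, 1.32 and 1.29 in the controls and 3.27, 3.98 and 2.10 with LMO2, which overlapped by the same library.

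IGFBP3, which forms the main IGF complex of serum together with the acid-labile subunit IGFALS, lies at 7:45912245-45921874 on the minus strand. It was at 6.01, 6.22 and 5.94 FPKM in U87MG-control and at 19.25, 28.48 and 7.13 FPKM in U87MG-LMO2. All 3 libraries with LMO2 were above the controls, but replicate 3 only just. The log2 fold change was 1.61 (SE 0.39, edgeR adjusted p = 0.0426), close to the threshold, and the call held in 6 of 14 alternatives. When 1 library was left out it held only without U87MG-LMO2 replicate 3 (log2 fold change 1.98, edgeR adjusted p = 2.36e-04), and it was lost without any of the other 5 libraries, with a lowest log2 fold change of 1.15 and a highest adjusted p of 0.156. Its neighbour IGFBP1, 18576 bases away on the other strand, was at 1, 0 and 1 counts in the controls and 3, 9 and 1 counts with LMO2.

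IGFBP6, a carrier that prefers IGF2, lies at 12:53097436-53102345 on the plus strand and was the most abundant member per length in every library. It was at 304.64, 277.22 and 281.66 FPKM in U87MG-control and at 187.6, 181.57 and 289.45 FPKM in U87MG-LMO2. Replicates 1 and 2 with LMO2 were below the controls, and replicate 3 was within their range in FPKM. In CPM replicate 3 was above all controls, at 300.9 against 290.5, 263.7 and 268.4. The log2 fold change was -0.33 (SE 0.20, edgeR adjusted p = 0.330), and without U87MG-LMO2 replicate 3 it was -0.64 with an adjusted p of 0.00145. A correction for GC content moved it to -0.61 (edgeR adjusted p = 0.0539), still without a call.

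IGFBP7, a relative with low affinity for IGFs that is also known as a matrix and vessel protein, lies at 4:57030773-57110385 on the minus strand. It was at 45.77, 39.07 and 36.04 FPKM in U87MG-control and at 51.54, 52.56 and 48.84 FPKM in U87MG-LMO2. The groups did not overlap, yet the gap was small, and the log2 fold change of 0.37 (SE 0.11) had an unadjusted p of 0.00947 and an edgeR adjusted p of 0.0809. IGFBP7-AS1, on the other strand, shares 94 of its 1740 exon bases with IGFBP7 exons and was at 1.75 to 2.12 CPM in the controls and 2.62 to 3.43 CPM with LMO2 (log2 fold change 0.63, edgeR adjusted p = 0.116).

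IGFBP2 and IGFBP5, neighbours 7668 bases apart on chromosome 2 and on opposite strands, failed the filter on low counts. IGFBP2 had 0, 0 and 0 counts in U87MG-control and 0, 0 and 1 in U87MG-LMO2, and a library at 0 counts allows up to 3. IGFBP5 had 3, 2 and 5 counts in the controls and 2, 0 and 2 with LMO2. Neither gene can be compared at this depth.

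**Figure D3:**
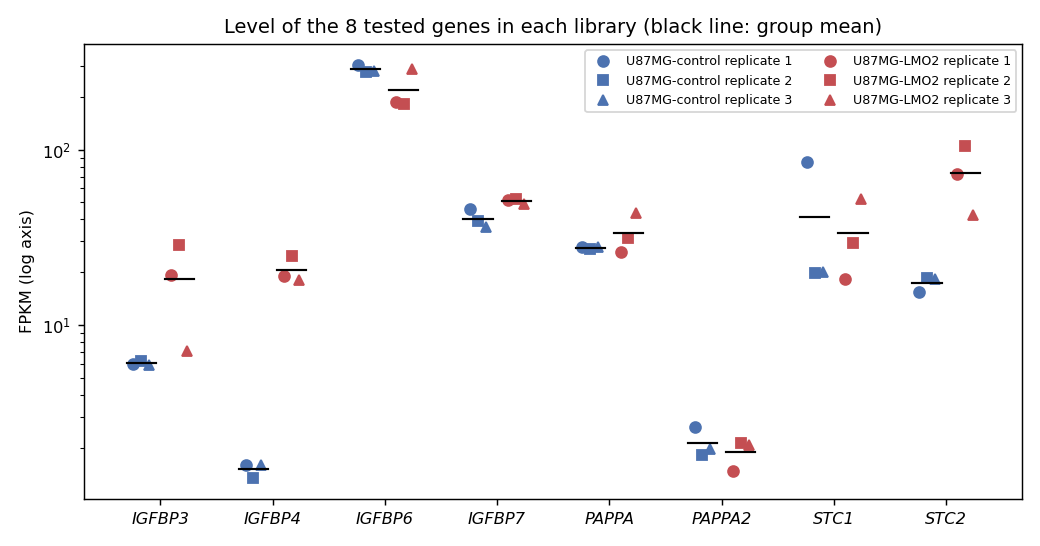
FPKM of the 8 tested members in each library (y axis, log scale), without IGFBP2 and IGFBP5. Points are libraries, coloured by group, with 3 a group. IGFBP6 is the highest member in all 6 libraries, and the groups stand clearly apart for IGFBP4 and STC2, whereas for STC1, PAPPA, PAPPA2 and IGFBP6 they overlap.

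Ordered by mean FPKM, the controls ran from IGFBP6 (287.8) through STC1 (41.4), IGFBP7 (40.3), PAPPA (27.6), STC2 (17.4), IGFBP3 (6.06) and PAPPA2 (2.13) to IGFBP4 (1.51). Only STC1 and IGFBP7 of these neighbours overlapped. With LMO2 the order was IGFBP6 (219.5), STC2 (73.2), IGFBP7 (51.0), PAPPA (33.6), STC1 (33.3), IGFBP4 (20.6), IGFBP3 (18.3) and PAPPA2 (1.89). STC2 overlapped IGFBP7 there, and PAPPA, STC1 and IGFBP4 each overlapped the next in order. IGFBP4 was thus below PAPPA2 in every control library and above it in every library with LMO2.

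The summed FPKM of IGFBP2 to IGFBP7 did not separate the groups, at 358.0, 323.9 and 325.3 in U87MG-control and 277.4, 287.3 and 363.6 in U87MG-LMO2. Its make-up differed. IGFBP4 was 0.444%, 0.414% and 0.489% of the sum in the controls and 6.85%, 8.58% and 4.98% with LMO2. IGFBP6 fell from 85.1%, 85.6% and 86.6% to 67.6%, 63.2% and 79.6%, every library with LMO2 below every control. IGFBP3 went from 1.68%, 1.92% and 1.83% to 6.94%, 9.91% and 1.96%, and IGFBP7 from 12.8%, 12.1% and 11.1% to 18.6%, 18.3% and 13.4%. In U87MG-LMO2 replicate 3 each of these shares was the nearest of its group to the controls. Shares of 1 sum are not independent of each other, and the direction for IGFBP7 depends on IGFBP6 being in the sum. Without IGFBP6, IGFBP7 made up 85.7%, 83.8% and 82.6% in the controls and 57.4%, 49.7% and 65.9% with LMO2, now lower in every library. IGFBP4 was still higher in every library, at 2.98%, 2.87% and 3.64% and then 21.1%, 23.3% and 24.4%. IGFBP3 overlapped, at 11.3%, 13.3% and 13.6% and then 21.4%, 26.9% and 9.62%.

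**Figure D4:**
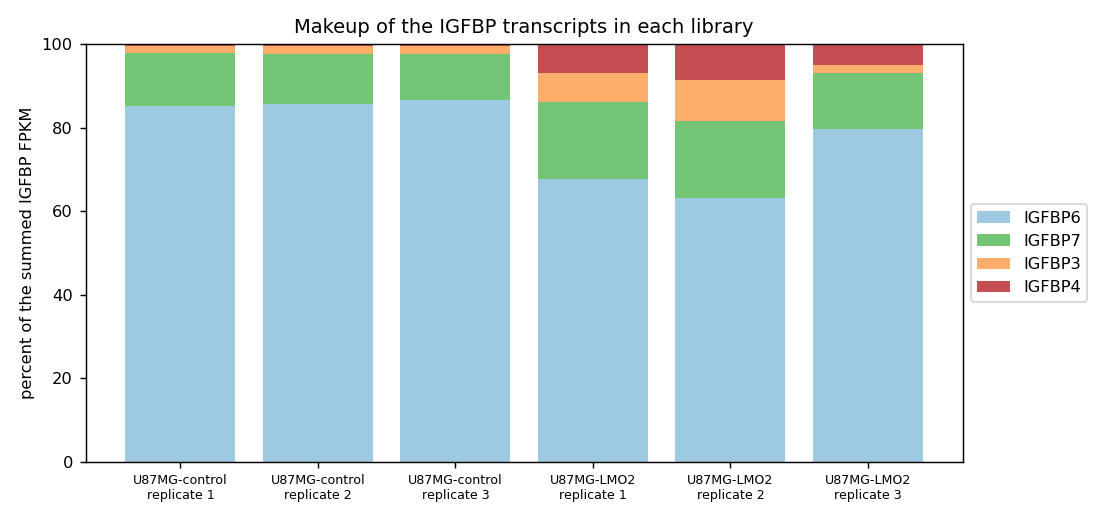
Stacked share of IGFBP6, IGFBP7, IGFBP3 and IGFBP4 in the summed IGFBP FPKM of a library (y axis, percent from 0), with 1 bar for each of the 6 libraries. IGFBP6 makes up 85.1% to 86.6% in the controls and 63.2% to 79.6% with LMO2, and IGFBP4 goes from at most 0.489% to at least 4.98%.

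The libraries with LMO2 were not alike in this axis. Replicate 3, which held the most LMO2, had the lowest STC2 and IGFBP3 of its group and the highest PAPPA, STC1 and IGFBP6. IGFBP4, by contrast, was at 42.1, 55.4 and 44.1 CPM in replicates 1 to 3. With 3 libraries no relation to the amount of LMO2 was tested.

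By the shape of their log2 CPM over the 6 libraries, among 15226 genes with a mean of at least 1 CPM, the genes most like IGFBP4 were Entrez gene 105378278, which has no symbol in the table used (Pearson r 0.999), and CD72 (0.997). CD72, a surface protein of B cells, was at 0.949 to 0.984 CPM in the controls and 2.07 to 2.17 CPM with LMO2. The nearest to STC2 were ARHGAP31 (0.998), MYPN (0.997) and CHMP6 (0.996), and each was likewise highest in U87MG-LMO2 replicate 2. The nearest to PAPPA were FBXO25 (0.997), LOC100505727 (0.995) and WDR1 (0.994), each highest in U87MG-LMO2 replicate 3. All 6 points share their libraries and each was picked as the highest among 15226 genes, so these values are a description.

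The genes that read IGFs showed no call. Of 16 ligands, receptors and adaptors listed, 14 were in the tables and 12 were tested. Of the tested genes edgeR called 0 higher and 0 lower, beside 4.72% and 2.75% of all tested genes. At those shares few or no calls would come among 12 genes, so the lack of calls does not set this list apart. DESeq2 and limma called 0 too. At an unadjusted p under 0.05, 3 were higher and 0 lower (IRS1, IRS2 and GIGYF1). Over all 16092 tested genes 2221 were higher and 1922 lower at that unadjusted p, 25.7% together. The median log2 fold change of the 12 tested IGF signalling genes was 0.07. IGF1R, the signalling receptor, was at 43.8, 38.3 and 41.2 CPM in U87MG-control and 34.4, 34.6 and 36.5 CPM in U87MG-LMO2 (log2 fold change -0.23, edgeR adjusted p = 0.210). IGF2R, which clears IGF2, had a log2 fold change of -0.01 (0.963 as edgeR adjusted p) and the insulin receptor INSR one of 0.15 (0.483). The adaptor IRS1 was at 129.7, 157.5 and 145.6 CPM and then 173.5, 161.1 and 267.1 CPM (log2 fold change 0.48, edgeR adjusted p = 0.154), and IRS2 had 0.32 (0.166). The ligands were scarce. IGF1 was at 0.949 to 1.97 CPM in the controls and 1.14 to 1.34 CPM with LMO2, and IGF2 had 2, 3 and 8 counts in the controls and 0 in each library with LMO2.

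Among the other carriers and the proteases known to cut IGFBPs, 19 were listed, 17 were in the tables and 11 were tested; 3 were called higher and 0 lower, beside 4.72% and 2.75% of all tested genes, with a median log2 fold change of 0.48. At an unadjusted p under 0.05 the count of lower genes was also 0, as it was by DESeq2 and limma. HTRA1, a secreted serine protease of matrix proteins, was at 84.9, 132.2 and 129.6 CPM in U87MG-control and 374.0, 353.0 and 316.9 CPM in U87MG-LMO2, well apart (log2 fold change 1.59, SE 0.17, edgeR adjusted p = 0.00344). ADAM12, a membrane and secreted metalloprotease that cuts IGFBP3 and IGFBP5, was at 329.9, 402.6 and 407.5 CPM and then 611.2, 606.4 and 576.9 CPM (log2 fold change 0.65, edgeR adjusted p = 0.0143). MMP2, a gelatinase, was at 1875.6, 1817.2 and 1827.2 CPM and then 2643.1, 2448.7 and 3382.5 CPM (log2 fold change 0.62, edgeR adjusted p = 0.0285). For all 3 the groups did not overlap, as in 17.5% of all tested genes in that direction. HTRA1 was called in all 6 fits that left out 1 library, whereas ADAM12 and MMP2 lost their calls without any 1 control or without U87MG-LMO2 replicate 1. PRG2, whose product is another inhibitor of PAPP-A, had 0, 1 and 1 counts in the controls and 4, 11 and 10 with LMO2, and IGFALS had 0, 0 and 3 and then 8, 5 and 5, too few for the filter. Without the filter 4 genes of the list were called higher, PRG2 among them.

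Of 24 genes of the PI3K-AKT-FOXO pathway, which the IGF1 receptor feeds, 23 were tested; 1 was called higher and 2 lower, beside 4.72% and 2.75% of all tested genes, with a median log2 fold change of -0.01. PIK3R2, a regulatory PI3K subunit, was at 132.6, 132.0 and 130.8 CPM in the controls and 172.9, 169.2 and 194.0 CPM with LMO2 (log2 fold change 0.44, edgeR adjusted p = 0.0319). Of the lower genes PIK3CA, a catalytic subunit, was at 35.0, 32.7 and 30.0 CPM and then 22.4, 21.0 and 18.5 CPM (log2 fold change -0.66, edgeR adjusted p = 0.0208). PIK3CA has a partial copy elsewhere in the genome that can share reads, so its value is uncertain. After a correction for GC content PIK3R2 lost its call, at 0.19. Neither gene was called without any 1 control or without U87MG-LMO2 replicate 1.

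**Figure D5:**
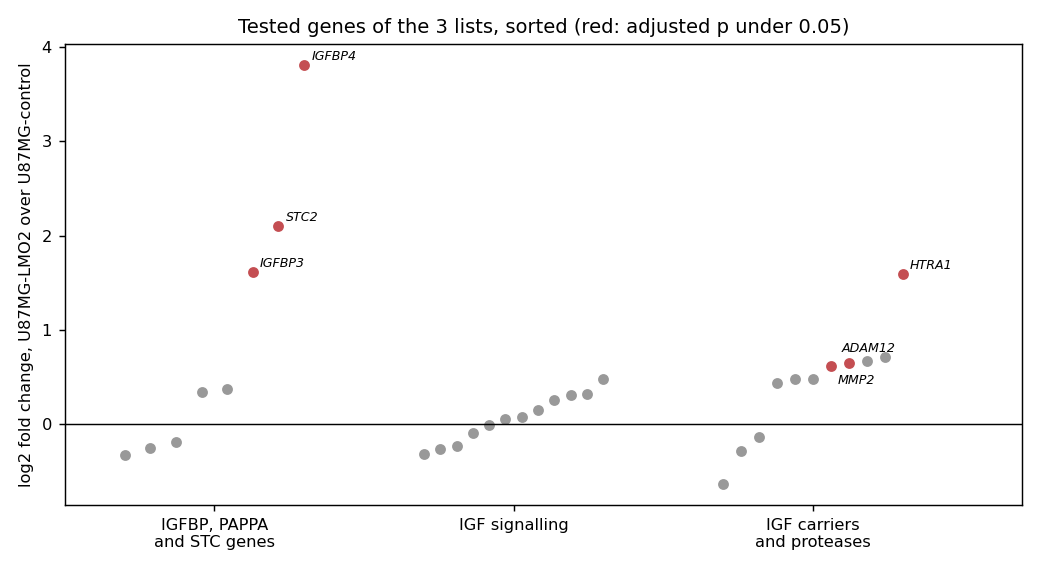
Fitted log2 fold change (y axis), U87MG-LMO2 over U87MG-control, of every tested gene among the 10 members, the IGF signalling genes and the other IGF carriers and proteases, sorted within a list; red points have an edgeR adjusted p under 0.05 and are named. IGFBP4, STC2, IGFBP3 and HTRA1 stand highest, from 1.59 to 3.81, and no IGF signalling gene is red.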

How the data were processed

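RNA of 6 U87MG libraries was sequenced by a service company. The authors deposited, for each library, expected counts per Entrez gene (estimates that are not normalized), FPKM values (scaled to length and mapped reads) and a length per gene. They also gave a table of mean FPKM per group, which holds their fold changes and probabilities too. Those fold changes and probabilities were not used. The submitters' processing notes name Bowtie2, BWA and GRCh38.p12; their roles, the counting program and strand use are not given in the sources used here. The table of U87MG-LMO2 replicate 3 is damaged: 134 genes whose mean FPKM did not match the authors' (tolerance 0.001), 129 of them without a line, were left out. None was a member, and GFAP was the 1 gene of the lists among them.

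Genes were named by RefSeq GeneID (89.6% matched). Positions are from GENCODE 29. Expected counts were rounded and tested with edgeR 4.0.16 in R 4.3.3 (filterByExpr, TMM, glmQLFit, glmQLFTest, 2-sided). CPM used TMM-adjusted library sizes, and correlations used log2 CPM with a prior count of 2. The alternatives tried were upper-quartile normalization, DESeq2 1.42.0, at least 10 counts in every library, no filter, limma 3.58.1 on log2(FPKM + 1) and log2(FPKM + 0.1), a replicate block, a GC correction (lowess span 0.3, GC known for 89.8% of tested genes) and leaving out each library. The fit was tested on simulated data. Counting floors cover counting error only.

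The named genes were all members, LMO2, the called genes of each list, chosen ligands, receptors, adaptors, carriers and PRG2, overlapping antisense genes and the 3 genes most like IGFBP4, PAPPA and STC2. Some genes that this rule names are not reported here. Members and lists were chosen with earlier results of these data known.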

Additional observations from a re-analysis of the deposited data

How the results depend on the processing

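IGFBP4 and STC2 were called higher in all 14 alternatives run. IGFBP3 lost its call with limma (log2 fold change 1.26 with a pseudocount of 1, limma adjusted p = 0.104, and 1.37 with 0.1, limma adjusted p = 0.102) and with the GC correction (1.56, edgeR adjusted p = 0.0601), and ranged from 1.15 to 1.98 when 1 library was left out, called in 1 of 6 such fits. The same fits gave -0.64 to -0.20 for IGFBP6 (called in 1; the GC correction gave -0.61, not called), -0.33 to 0.01 for PAPPA2 and -0.80 to 0.81 for STC1. STC1 was positive without control replicate 1 (0.81) and without U87MG-LMO2 replicate 1 (0.07), and PAPPA2 without control replicate 1 (0.01). The count of members called lower was 0 to 1.

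In the lists, leaving out 1 library gave 1 to 3 carrier and protease genes called higher and 0 to 1 lower, and 0 to 1 PI3K-AKT-FOXO genes higher and 0 to 2 lower. With no filter, 1 IGF signalling gene was called lower (IGF2, from 2, 3 and 8 counts to 0). DESeq2 called 4 PI3K-AKT-FOXO genes lower, PIK3CA and PIK3CB among them. The GC correction gave 0 higher and 1 lower. For none of these was the cause tested.

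Libraries with the same replicate number showed no clear shared deviation from their groups, with correlations of -0.117, -0.00342 and -0.0407. No label says whether they were handled in pairs, and with 3 libraries a group these values cannot show it. A fit with the replicate number as a block called 0 PI3K-AKT-FOXO genes higher and 1 lower, gave STC1 0.03, and called 387 genes higher and 189 lower of all tested, against 760 and 443 without the block. DESeq2 called 979 and 685, no filter 930 and 503, the GC correction 535 and 376, and limma 512 to 521 and 363 to 369. Leaving out 1 library gave 102 to 1307 higher and 42 to 1102 lower, the highest without U87MG-LMO2 replicate 3 and the lowest without control replicate 3, and then 1 group has 2 libraries. IGFBP2 and IGFBP5 could not be tested at this depth.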

Other observations

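The length given for PAPPA2 varied between libraries, at 8327, 7592 and 8204 bases in U87MG-control and 7939, 7617 and 7615 bases in U87MG-LMO2. The groups overlapped, and how the length was computed is not given in the sources used here. INS-IGF2, a read-through gene that overlaps IGF2, had 0 counts in the controls and 0, 0 and 3 with LMO2.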
